A study of Arabidopsis thaliana with 12 samples.

Results

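Expansins and xyloglucan endotransglucosylase/hydrolases (XTHs) are the best known protein families that loosen and remodel the growing plant cell wall. The genes described here are those of Arabidopsis thaliana whose symbol places them in the α-expansins (EXPA), the β-expansins (EXPB), the expansin-like genes (EXLA, EXLB) or the XTH family, and that had a probe set of their own on the arrays. This rule gave 27 genes of 13356 genes with a probe set of their own. They were 10 α-expansins, 4 β-expansins, 4 expansin-like genes and 9 XTH genes, each with 1 probe set. The reference gene table holds 66 genes with such symbols, so the account covers part of these families. Another 2 genes carry an XTH or expansin-like name only as an older symbol (EXGT-A3, once XTH27, and AT4G30380, once EXLB2), and they are reported beside the 27 and not counted with them.

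A primary wall holds cellulose fibrils tied together by xyloglucan and embedded in pectin. Expansins let the fibrils slip past each other without cutting any bond, and they act best at the acid pH that growing cells make in their walls. XTHs cut a xyloglucan chain and join the end to another chain or, in some members, to water. Both families are large, and their members are used in different organs and respond to hormones, light and stress, so that single members can move apart from one another.

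The RNA came from green tissue of 3-week-old seedlings of the Col-0 ecotype, hybridised to 12 one-colour arrays. All groups were grown with 10 h of light and 14 h of dark at 23 °C. There were 4 groups, each with 3 replicates that the labels call biological. The CHLD RNAi group carried an inducible RNA interference construct against CHLD, a subunit of the magnesium chelatase of chlorophyll synthesis, and was sprayed with dexamethasone (20 µg/ml). Its control was Col-0 with the same dexamethasone. The CHLM overexpression group carried an inducible construct for CHLM, the methyltransferase of the following step, and was sprayed with β-estradiol (20 µM). Its control was Col-0 with the same β-estradiol. All plants had thus received an inducer, and each Col-0 group differed from the other in its inducer. The labels name neither the promoters of the constructs nor the number of independent transgenic lines, and untreated plants were not analysed here.

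Values are log2 signal, so that a difference of 1 is a doubling. Array medians lay between 6.26 and 6.31, and any pair of arrays was correlated at 0.983 to 0.997 across probe sets. CHLM, the targeted gene of the overexpression line, was at 14.48, 13.96 and 14.24 in that line and at 11.71, 11.72 and 11.68 in Col-0 under estradiol. CHLD itself was not analysed here. In Col-0 under estradiol, replicate 1 was the least like its fellows, with a lowest correlation of 0.99 in that group, where the lowest within the other groups was 0.994. The green tissue markers LHCB4.2, PSAN and PRK lay between 12.49 and 13.96 on all arrays. The other 2 measured green tissue markers, both plastid-encoded, were called in both lines. Transcript of psbA, of photosystem II, fell by 0.75 in the CHLD RNAi line (limma adjusted p = 5.63e-04) and by 0.57 in the CHLM line (0.00664). Transcript of rbcL, of Rubisco, rose by 0.51 in the CHLD RNAi line (limma adjusted p = 0.00736) and by 0.50 in the CHLM line (0.0122). Their part in the results on wall genes was not tested. EXPA7 and EXPA18, which are expansins of root hairs, lay between 3.44 and 5.44. In whole tissue, fewer cells of a type and less RNA per cell cannot be told apart.

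In 13 of the 27 genes, called dim here, the mean over the 12 arrays was under 6, a limit just below the array medians. These means lay between 3.10 and 5.81, so not all were near the low end of the scale. In the other 14 genes the mean lay between 6.10 and 9.80. A change counted as called at an adjusted p under 0.05 in the limma fit over all probe sets. In at least 1 of 4 comparisons, 10 of the 27 genes were called, against 17.5% of all probe sets. The families were chosen with earlier results of these data known, so the called shares do not test whether they stand out. Of the 14 brighter genes these were 8, against 25.6% of probe sets with a mean of at least 6, and of the 13 dim genes 2 (EXPB2 and XTH29), against 8.21% of probe sets under it. The remaining 17 genes were called in 0 comparisons. The calls were spread over the families: EXPA4, EXPA8 and EXPA9 of the α-expansins, EXPB1, EXPB2 and EXPB3 of the β-expansins, EXLB1 of the expansin-like genes, and XTH19, XTH29 and XTH32.

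**Figure D1:**
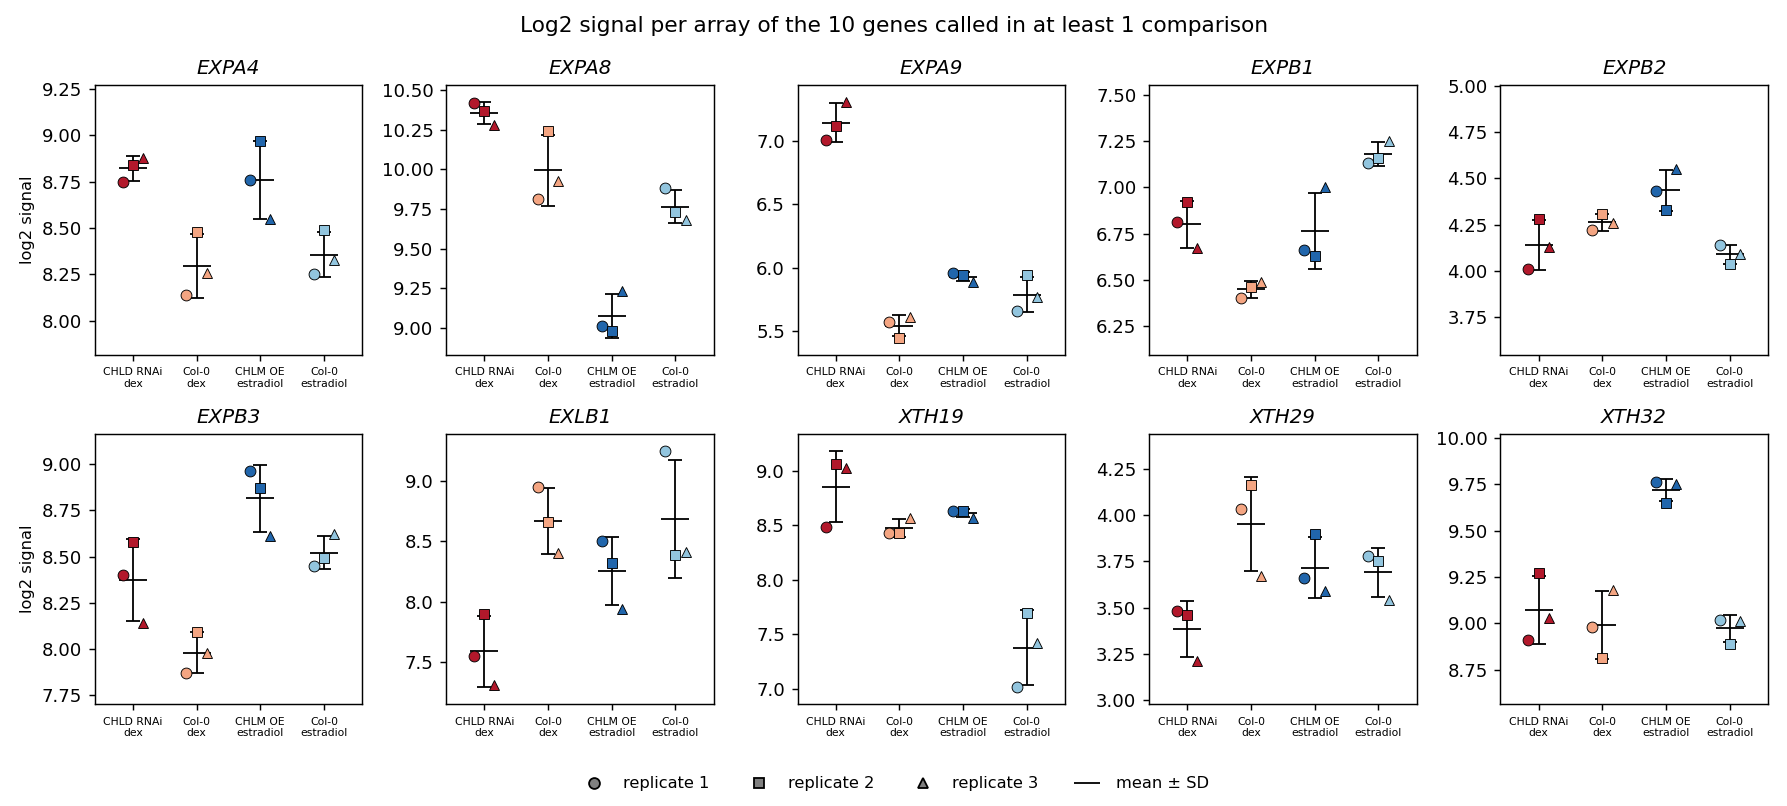
Log2 signal (vertical axes, each panel on its own scale) on each of the 12 arrays for the 10 genes called in at least 1 comparison; symbols are replicates, and bars are the group mean with its SD (n = 3). EXPA9 was high in all 3 CHLD RNAi arrays, XTH32 in all 3 CHLM overexpression arrays, and XTH19 was low in all 3 arrays of Col-0 under estradiol.

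Setting the CHLD RNAi plants against Col-0 given the same inducer shows the wall genes under a targeted magnesium chelatase. In the line, 4 of the 27 genes rose (EXPA4, EXPA9, EXPB1 and EXPB3) and 2 fell (EXLB1 and XTH29), a called share of 22.2% against 12.4% of all 22746 probe sets. By direction, the 4 rises stood against 6.07% of all probe sets and the 2 falls against 6.34%. Calls of at least 2-fold numbered 2 of the 27, against 1.26% of all probe sets. The largest rise was that of an α-expansin and the largest fall that of an expansin-like gene. The median log2 difference of the 27 genes was 0.08, against -0.01 over all probe sets.

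EXPA9, an α-expansin, was at 7.01, 7.12 and 7.31 in the CHLD RNAi line and at 5.57, 5.45 and 5.61 in Col-0 under dexamethasone. All 3 arrays of the line lay well above all other arrays, since the highest value in the other 3 groups was 5.96. The rise was 3.04-fold (log2 difference 1.60, SE 0.0997, limma adjusted p = 1.45e-07) and ranked 98 of the 22746 probe sets by size. It was kept under every alternative setting tried, with values between 1.52 and 1.67 when single arrays were left out.

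EXPA4, another α-expansin, was at 8.75, 8.84 and 8.88 in the line and at 8.14, 8.48 and 8.26 in Col-0 under dexamethasone. The groups did not overlap, and the rise was 1.44-fold (log2 difference 0.53, SE 0.118, limma adjusted p = 0.00977). The call ended without Col-0 dexamethasone replicate 1, the lowest array (adjusted p = 0.0511).

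The β-expansins EXPB1 and EXPB3 rose by less, and both calls lay close to the threshold. EXPB1 was at 6.81, 6.92 and 6.67 in the line and at 6.40, 6.46 and 6.49 in Col-0 under dexamethasone (log2 difference 0.35, SE 0.106, limma adjusted p = 0.0439). EXPB3 was at 8.40, 8.58 and 8.14 in the line and at 7.87, 8.09 and 7.98 in Col-0 under dexamethasone (log2 difference 0.39, SE 0.121, limma adjusted p = 0.0486). In both genes the lowest array of the line lay just above the highest Col-0 array. Each call ended when any Col-0 dexamethasone array was dropped, likewise replicate 1 or 2 of the CHLD RNAi line, replicate 2 or 3 of Col-0 under estradiol and, for EXPB3, replicate 2 of the CHLM line. Adjusted p then reached 0.154 for EXPB1 and 0.187 for EXPB3. The EXPB1 call also ended with arrays centred on their median or with a replicate block (log2 difference 0.35, adjusted p = 0.0566), and the EXPB3 call with centring or with quantile normalization.

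EXLB1, an expansin-like gene, was at 7.55, 7.90 and 7.31 in the CHLD RNAi line and at 8.95, 8.66 and 8.40 in Col-0 under dexamethasone. The lowest Col-0 array was above the highest array of the line, and the fall was 2.12-fold (log2 difference -1.08, SE 0.226, limma adjusted p = 0.00676). The call was kept under every alternative setting tried (-1.24 to -0.94 when single arrays were left out). In the CHLM line EXLB1 stood at -0.43 against Col-0 under estradiol (limma adjusted p = 0.261).

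XTH29, an XTH gene that was dim on all arrays, was at 3.48, 3.46 and 3.21 in the line and at 4.03, 4.16 and 3.67 in Col-0 under dexamethasone. The groups did not overlap (log2 difference -0.57, SE 0.132, limma adjusted p = 0.0123), but all of these values lie near the low end of the scale. The call ended without CHLD RNAi replicate 3 or Col-0 dexamethasone replicate 1 or 2 (adjusted p up to 0.0662).

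The other 21 genes missed the threshold, with differences between -0.41 and 0.49. EXPA8 came closest, at 10.42, 10.37 and 10.28 in the line and 9.81, 10.24 and 9.93 in Col-0 under dexamethasone (log2 difference 0.36, SE 0.114, limma adjusted p = 0.0520). The groups did not overlap, and it passed when any of 3 arrays was left out, which were Col-0 dexamethasone replicate 2, CHLM replicate 3 and Col-0 estradiol replicate 1 (smallest adjusted p = 0.0189). It also passed among probe sets with a mean of at least 6, with a variance trend and robust fit, and with array weights. Without Col-0 dexamethasone replicate 1 it stood at 0.27 (adjusted p = 0.200). EXLA2 had the largest difference that missed, at 7.24, 8.15 and 7.43 in the line and 7.21, 7.25 and 6.88 in Col-0 under dexamethasone (0.49, SE 0.208, limma adjusted p = 0.146). It rested on CHLD RNAi replicate 2, and the difference was 0.22 without that array. In all, groups without overlap were seen in 11 of the 27 genes (40.7%), 6 higher and 5 lower, against 31.7% of all probe sets (15.9% higher and 15.8% lower). EXGT-A3, known from leaf veins, was at 11.17, 11.14 and 10.93 in the line and 10.61, 10.52 and 10.52 in Col-0, and it rose (0.53, SE 0.101, limma adjusted p = 0.00394), whereas AT4G30380 stood at 0.02.

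Setting the CHLM overexpression plants against Col-0 given the same inducer shows the wall genes under raised methyltransferase transcript. Here too 4 of the 27 genes rose (EXPA4, EXPB2, XTH19 and XTH32) and 2 fell (EXPA8 and EXPB1), a share of 22.2% against 9.75% of all probe sets. By direction, 5.44% of all probe sets rose and 4.30% fell. A call of at least 2-fold was made for 1 of the 27, against 0.673% of all probe sets. EXPA4 and EXPB1 were called in both lines, EXPA4 upward in both and EXPB1 in opposite directions. The median difference was 0.02, the same as over all probe sets.

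XTH32, an XTH of the small clade in which hydrolase activity is known, was at 9.76, 9.65 and 9.75 in the CHLM overexpression line and at 9.02, 8.89 and 9.01 in Col-0 under estradiol. All 3 arrays of the line lay above each of the other 9 arrays, of which the highest was 9.27. The rise was 1.68-fold (log2 difference 0.75, SE 0.111, limma adjusted p = 0.00169) and was kept under every alternative setting tried. In the CHLD RNAi line XTH32 was at 8.91, 9.27 and 9.03, against 8.98, 8.81 and 9.18 in Col-0 under dexamethasone, a difference of 0.08 with a 95% interval from -0.16 to 0.32.

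XTH19, known as an auxin-responsive XTH, was at 8.63, 8.63 and 8.57 in the CHLM line and at 7.02, 7.70 and 7.42 in Col-0 under estradiol. The rise was 2.35-fold (log2 difference 1.23, SE 0.164, limma adjusted p = 8.44e-04). It was kept under every alternative setting that used this control. XTH19 in Col-0 under dexamethasone, however, was near the CHLM line, at 8.43, 8.43 and 8.57. The low values were those of the Col-0 estradiol group.

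EXPA8, an α-expansin, was at 9.01, 8.98 and 9.23 in the CHLM line and at 9.88, 9.73 and 9.68 in Col-0 under estradiol. The line held the 3 lowest of the 12 values, and the fall was 1.61-fold (log2 difference -0.69, SE 0.114, limma adjusted p = 0.00329). It was kept under every alternative setting tried, with values between -0.77 and -0.63 when single arrays were left out.

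EXPB1 was at 6.66, 6.63 and 7.0 in the CHLM line and at 7.13, 7.16 and 7.25 in Col-0 under estradiol. The fall was 1.33-fold (log2 difference -0.42, SE 0.106, limma adjusted p = 0.0250). It ended when replicate 1 or 2 of the line, or replicate 2 or 3 of Col-0 under estradiol, was dropped (adjusted p up to 0.0912) and when only these 6 arrays were fitted.

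The remaining calls were small rises. EXPA4 was at 8.76, 8.97 and 8.55 in the line and at 8.25, 8.49 and 8.33 in Col-0 under estradiol (log2 difference 0.40, SE 0.118, limma adjusted p = 0.0459), and EXPB2 at 4.43, 4.33 and 4.55 against 4.14, 4.04 and 4.09 (0.35, SE 0.0917, limma adjusted p = 0.0303). Both groups were free of overlap, but EXPB2 is a dim probe set. The EXPA4 call ended without any single CHLD RNAi array, replicate 3 of Col-0 under dexamethasone, replicate 1 or 2 of the CHLM line, or replicate 1 or 3 of Col-0 under estradiol (adjusted p up to 0.159), with quantile normalization and when only these 6 arrays were fitted. The EXPB2 call ended when replicate 1 or 3 of the line, or replicate 2 or 3 of Col-0 under estradiol, was dropped (adjusted p up to 0.0934) and in the fit of these 6 arrays.

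Of the 21 genes that missed the threshold, 3 are set out here. XTH18, which lies next to XTH19 on chromosome 4 in the TAIR10.1 gene table, had the largest difference (0.78, SE 0.322, limma adjusted p = 0.143). It was at 7.58, 7.22 and 6.98 in the line and at 5.65, 7.0 and 6.78 in Col-0 under estradiol, so that the groups overlapped, and without Col-0 estradiol replicate 1 the difference was 0.37. EXLA1, an expansin-like gene, was at 9.69, 10.00 and 8.91 in the line and at 8.60, 8.89 and 8.90 in Col-0 under estradiol (0.74, SE 0.229, limma adjusted p = 0.0572). EXPA16, an α-expansin, was at 6.62, 6.98 and 7.48 in the line and at 7.55, 7.58 and 7.57 in Col-0 under estradiol (-0.54, SE 0.166, limma adjusted p = 0.0552). In EXLA1 and EXPA16 the third CHLM array lay next to Col-0, and without it both genes passed, EXLA1 at 1.05 (adjusted p = 0.00683) and EXPA16 at -0.77 (adjusted p = 0.00631). Without the second CHLM array EXLA1 stood at 0.50 (adjusted p = 0.201), and without the first EXPA16 stood at -0.34 (adjusted p = 0.202). Groups without overlap were seen in 10 of the 27 genes, 6 higher and 4 lower, against 26.3% of all probe sets (15.1% higher and 11.3% lower). EXGT-A3 stood at 0.25 (adjusted p = 0.137) and AT4G30380 at 0.06, both short of the threshold.

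**Figure D2:**
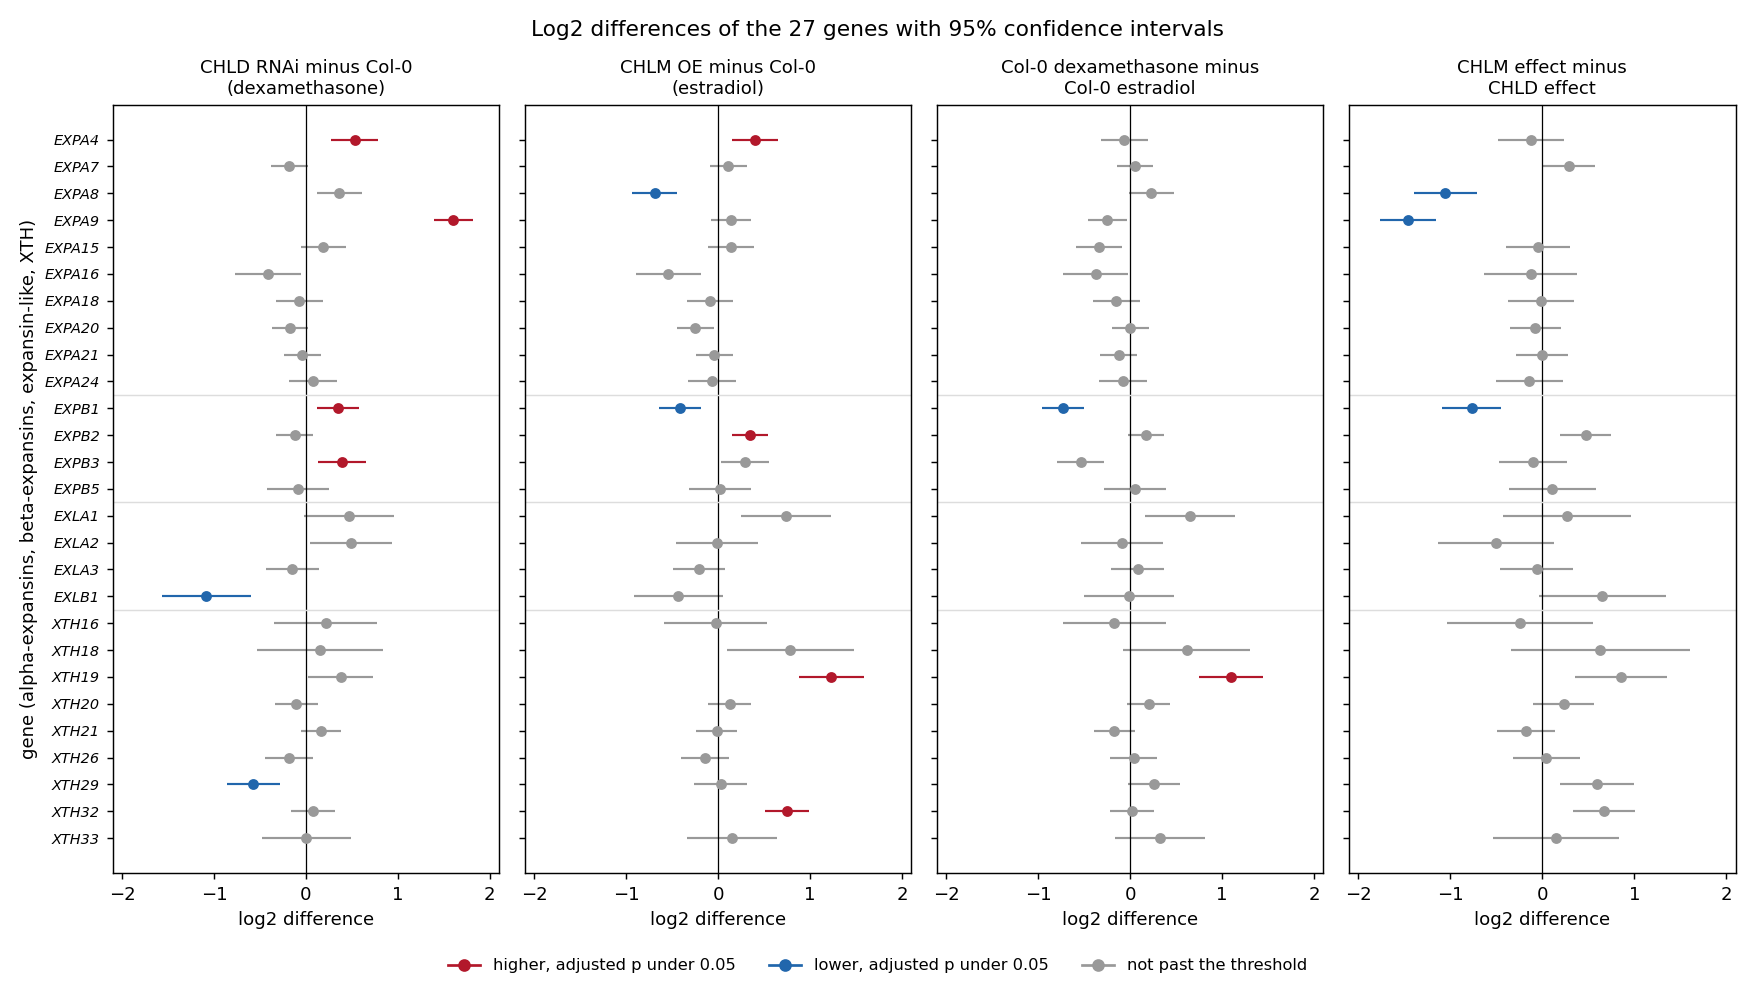
Log2 differences of the 27 genes (dots) with 95% confidence intervals (bars) in the 4 comparisons, with genes grouped by family from top to bottom; red and blue mark calls upward and downward at an adjusted p under 0.05, and grey marks genes short of it. The calls fall on 6 genes for each line, 2 for the Col-0 groups and 3 for the difference between the lines' effects.

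The 2 Col-0 groups have the same genotype and differ in the inducer they received. The labels do not say whether they were grown and harvested together, so that inducer and growth set cannot be told apart. Between them, 2 of the 27 genes were called (7.41%), while over all probe sets 11 of 22746 were (0.0484%). As the families were chosen with earlier results of these data known, this contrast does not test them. Under dexamethasone 1 of the 27 was higher (0.0308% of all probe sets) and 1 lower (0.0176%), and 1 call was at least 2-fold (0.0308%). Both are described above as calls of the CHLM comparison, which shares the Col-0 estradiol arrays. EXPB1 was also called in the CHLD RNAi comparison, which shares the Col-0 dexamethasone arrays.

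XTH19 was at 8.43, 8.43 and 8.57 in Col-0 under dexamethasone and at 7.02, 7.70 and 7.42 in Col-0 under estradiol, 2.14-fold higher under dexamethasone (log2 difference 1.1, SE 0.164, limma adjusted p = 0.0371). EXPB1 was at 6.40, 6.46 and 6.49 in Col-0 under dexamethasone and at 7.13, 7.16 and 7.25 in Col-0 under estradiol, 1.66-fold lower under dexamethasone (-0.73, SE 0.106, limma adjusted p = 0.0320). Replicates were tight in EXPB1, with an SD of 0.05 under dexamethasone and 0.06 under estradiol, and wider in XTH19 under estradiol (SD 0.34). Each of these calls ended when any single Col-0 dexamethasone array was left out or Col-0 estradiol replicate 3, and the EXPB1 call also without Col-0 estradiol replicate 2, with adjusted p up to 0.167. The XTH19 call also ended in the fit of these 6 arrays (adjusted p = 0.0658). The differences themselves stayed between 0.92 and 1.26 for XTH19 and between -0.76 and -0.70 for EXPB1. Groups without overlap were seen in 9 of the 27 genes, 4 higher and 5 lower under dexamethasone, against 14.9% of all probe sets (8.12% higher and 6.74% lower). EXLA1 had the largest difference that missed (0.65, SE 0.229, limma adjusted p = 0.319). EXPB3 stood at 7.98 ± 0.11 under dexamethasone and 8.52 ± 0.09 under estradiol (SD, n = 3 each; -0.54, SE 0.121, limma adjusted p = 0.121), and it passed without Col-0 estradiol replicate 1 (adjusted p = 0.0323) and with array weights (adjusted p = 0.0208).

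Because the Col-0 groups differed in these genes, each line was also set against the Col-0 group of the other inducer, an alternative chosen after seeing the data, in which line and inducer differ together. Called genes numbered 7 for the CHLM line against Col-0 under dexamethasone (21.1% of all probe sets were called), of which 3 kept the call and direction of the comparison with the matched Col-0. For the CHLD RNAi line against Col-0 under estradiol they numbered 8 (7.02% of all probe sets), and 3 likewise kept it. EXPB1 changed direction in both. It was higher in the CHLM line than in Col-0 under dexamethasone (log2 difference 0.31, adjusted p = 0.0486) and lower in the CHLD RNAi line than in Col-0 under estradiol (-0.38, adjusted p = 0.0447). Each line was at an intermediate level, with a mean of 6.80 in CHLD RNAi and 6.76 in CHLM overexpression, between 6.45 in Col-0 under dexamethasone and 7.18 in Col-0 under estradiol.

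XTH19 exceeded Col-0 under estradiol in both lines, by 1.47 (adjusted p = 6.33e-05) in the CHLD RNAi line. It stood 0.13 above Col-0 under dexamethasone in the CHLM line (adjusted p = 0.633). EXPB3 stood at -0.15 for the CHLD RNAi line against Col-0 under estradiol (adjusted p = 0.556) and rose by 0.83 in the CHLM line against Col-0 under dexamethasone (adjusted p = 4.60e-04). XTH32 (0.73, adjusted p = 5.92e-04) and EXPA8 (-0.92, adjusted p = 1.57e-04) in the CHLM line, EXPA9 (1.36, adjusted p = 8.13e-07) and EXLB1 (-1.1) in the CHLD RNAi line and EXPA4 in both lines (0.47 in each) were called in the same direction against either Col-0 group. XTH29 in the CHLD RNAi line lost its call against the other Col-0 group (-0.31, limma adjusted p = 0.202). So did EXPB2 in the CHLM line (0.17, limma adjusted p = 0.212). Calls made only against the other Col-0 group included EXLA1 (1.12), EXPA16 (-0.79) and EXPA8 (0.59) in the CHLD RNAi line. In the CHLM line they included EXPA15 (0.48) and EXPA9 (0.39).

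**Figure D3:**
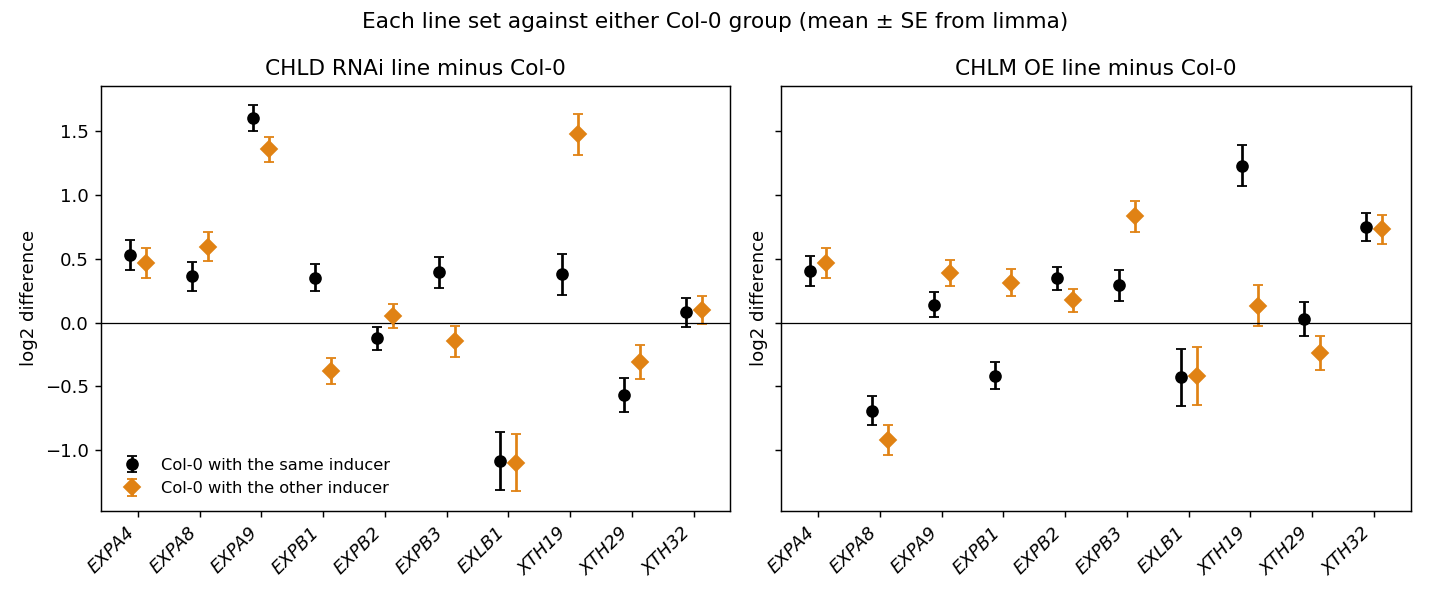
Log2 differences (vertical axes; bars are the SE from limma) of the 10 called genes in the CHLD RNAi line (left) and the CHLM overexpression line (right), against Col-0 with the same inducer (black circles) and against Col-0 with the other inducer (orange diamonds). EXPB1 lies on opposite sides of 0 for the 2 references in each line, and XTH19 is near 0 in the CHLM line only against Col-0 under dexamethasone.

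Whether the lines differ in their effect was tested directly, as the CHLM effect minus the CHLD effect, each taken against the Col-0 group with the same inducer. Of the 27 genes 3 were called (11.1%, against 1.13% of all probe sets), and in all 3 the CHLM effect was the lower one (0.879% of all probe sets). Of these, 2 differed by at least 2-fold, against 0.646%. EXPA9 had the largest difference (-1.46, SE 0.141, limma adjusted p = 3.15e-05), with an effect of 0.14 in the CHLM line and 1.60 in the CHLD RNAi line. EXPA8 followed (-1.05, SE 0.161, limma adjusted p = 0.00330), with an effect of -0.69 in the CHLM line and 0.36 in the CHLD RNAi line. EXPB1 differed by -0.77 (SE 0.149, limma adjusted p = 0.0192), with an effect of -0.42 in the CHLM line and 0.35 in the CHLD RNAi line. The EXPA9 and EXPA8 calls were kept under every alternative setting tried. The EXPB1 call ended without CHLD RNAi replicate 2, Col-0 dexamethasone replicate 1 or 2, replicate 1 or 2 of the CHLM line or replicate 3 of Col-0 under estradiol (adjusted p up to 0.0616).

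The XTH genes called in the CHLM line did not pass in this test. XTH19 stood at 0.85 (SE 0.232, limma adjusted p = 0.127; 95% interval 0.36 to 1.35) and XTH32 at 0.67 (SE 0.157, limma adjusted p = 0.0645). XTH32 passed when replicate 2 of the CHLD RNAi line, replicate 2 of Col-0 under dexamethasone or replicate 1 of Col-0 under estradiol was dropped (smallest adjusted p = 0.0295), and with a variance trend and robust fit or array weights. In the other single-array omissions its adjusted p reached 0.171. For EXPA4, which rose in both lines, the difference was -0.13 with a 95% interval from -0.48 to 0.23, and for EXLB1 it was 0.65 (-0.03 to 1.34).

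Of the 17 genes called in 0 comparisons, 6 were bright: EXPA15, EXPA16, EXLA1, EXLA2, XTH16 and XTH18. EXLA1 had the brightest probe set of the 17. In the dexamethasone comparison it was at 9.57, 10.19 and 9.98 in the CHLD RNAi line and 9.64, 9.19 and 9.5 in Col-0, which overlapped (0.47, SE 0.229, limma adjusted p = 0.211). The 6 genes' SDs within groups reached 0.72 (XTH18 in Col-0 under estradiol), and single arrays often set them. XTH16 was at 8.79, 9.45 and 8.62 in the CHLD RNAi line and 9.06, 8.76 and 8.39 in Col-0 under dexamethasone, and at 9.28, 9.16 and 8.22 in the CHLM line and 8.78, 8.86 and 9.09 in Col-0 under estradiol, so that its groups overlapped throughout. Over the 14 brighter genes, replicate 2 of the CHLD RNAi line was the highest of its group in 9. Replicate 3 of the CHLM line was the lowest of its group in 10, and in Col-0 under estradiol the least typical array, replicate 1, was the lowest in 11. Such counts were not taken over all probe sets, so whether they are particular to these genes was not tested. The other 11 of the 17 genes were dim, with single values between 2.93 and 6.04 and differences between -0.25 and 0.32 over all comparisons. They were the α-expansins EXPA7, EXPA18, EXPA20, EXPA21 and EXPA24, the β-expansin EXPB5, the expansin-like gene EXLA3 and XTH20, XTH21, XTH26 and XTH33. XTH21 had the dimmest probe set of the 27. It was at 3.34, 3.05 and 3.04 in the CHLD RNAi line and 2.93, 3.01 and 3.00 in Col-0 under dexamethasone, and at 3.32, 3.05 and 3.05 in the CHLM line and 3.14, 3.22 and 3.10 in Col-0 under estradiol.

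**Figure D4:**
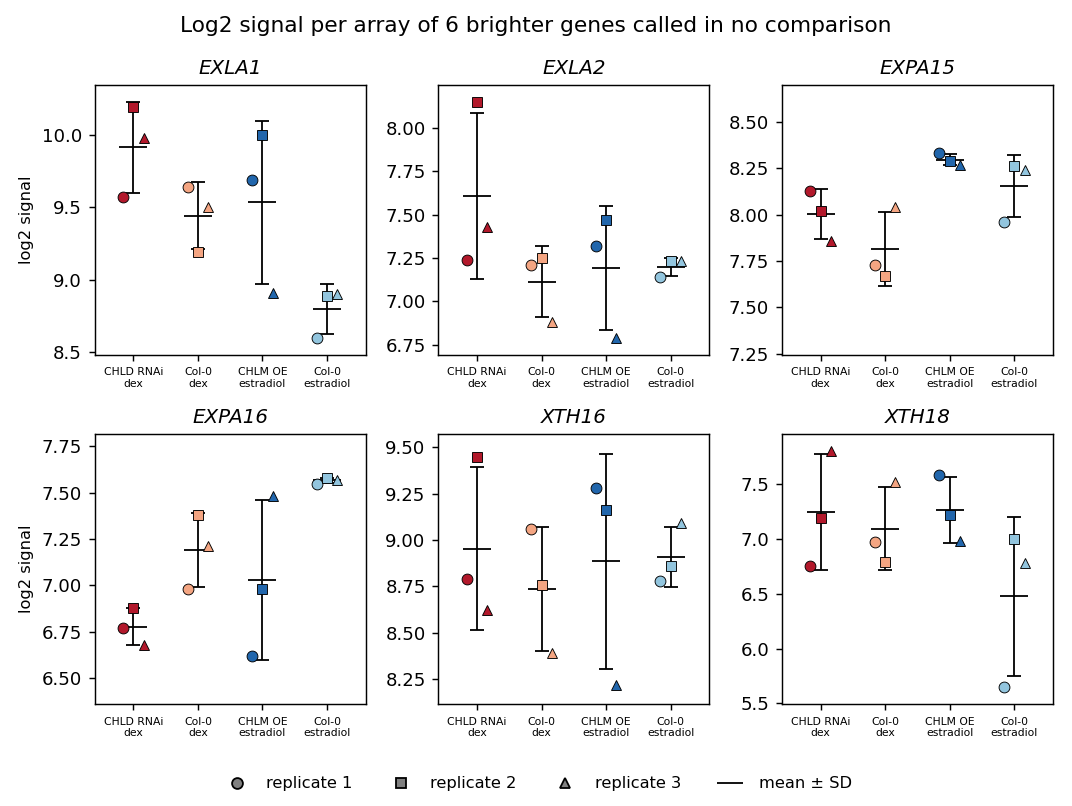
Log2 signal (vertical axes, each panel on its own scale) on each of the 12 arrays for the 6 brighter genes called in 0 comparisons; symbols are replicates, and bars are the group mean with its SD (n = 3). In EXLA1, EXLA2 and XTH16 the third CHLM array (triangle) lay below the other CHLM arrays, and in XTH18 replicate 1 of Col-0 under estradiol (circle) lay at 5.65.

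Other genes of the wall were taken by symbol from a list of synthesis, hydrolysis, pectin and wall protein families, and 51 had a probe set of their own. Of the 51, 22 were TBL genes, 16 glucan and xyloglucan hydrolases, 10 of hemicellulose synthesis, 2 of pectin and 1 of cellulose synthesis. The class of wall proteins held TBL genes only, so the shares below do not stand for wall genes at large. In the CHLD RNAi line 3 of the 51 rose and 3 fell (11.8%, against 12.4% of all probe sets), and in the CHLM line 1 rose and 1 fell (3.92%, against 9.75%). The median log2 difference of the 51 was -0.067 in the CHLD RNAi line, against -0.007 over all probe sets. In the CHLM line it was 0.003, against 0.02. Groups without overlap in the CHLD RNAi line were seen in 6 higher and 12 lower of the 51, against 15.9% and 15.8% of all probe sets. In the CHLM line they were 6 and 6, against 15.1% and 11.3%. Between the Col-0 groups, and in the difference between the effects, 0 of 51 were called by limma, against 0.0484% and 1.13% of all probe sets. At an unadjusted p under 0.05 there were 5 and 6, a count that was not taken over all probe sets. The endoglucanase gene GH9B8 rose in both lines, by 0.41 in the CHLD RNAi line (SE 0.0876, limma adjusted p = 0.00732) and by 0.46 in the CHLM line (SE 0.0876, limma adjusted p = 0.00654). Its mean was 8.19 in the CHLD RNAi line and 8.60 in the CHLM line. In Col-0 it was 7.78 under dexamethasone and 8.14 under estradiol. CSLA01, of the glucomannan synthase family, rose by 1.04 (SE 0.308, limma adjusted p = 0.0407) in the CHLD RNAi line. Its mean there was 7.49, against 6.45 in Col-0 under dexamethasone, and it was 7.39 in Col-0 under estradiol. TBL26, of a family whose known members acetylate wall polysaccharides, rose by 0.87 in the CHLD RNAi line (SE 0.187, limma adjusted p = 0.00808). Its mean in that line was 8.39, against 7.52 in Col-0 under dexamethasone and 8.17 in Col-0 under estradiol. In the CHLD RNAi line ATCSLC08, of the family that makes the xyloglucan backbone, fell by 0.42 (limma adjusted p = 0.0342). TBL39 and TBL25 fell in that line by 0.47 and 0.33. In the CHLM line CSLD2, a cellulose synthase-like gene, fell by 0.35 (adjusted p = 0.0328).

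Markers of other cell types were few. The guard cell gene FMA fell in the CHLD RNAi line and was at 6.12, 5.79 and 5.92 there, against 6.18, 6.40 and 6.38 in Col-0 under dexamethasone. It was the only listed guard cell marker with a probe set of its own. No listed marker of trichomes, epidermis, phloem, xylem or dividing cells had one, and the part of cell composition in the differences above was not tested.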

How the data were processed

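The authors deposited 1 table of log2 signal values, and the submitters' processing notes name Expression Console of Affymetrix. Its version, the summary method and the normalization are not given in the sources used here. Base 2 was assumed because all values lay between 2.39 and 14.49. Values were used as deposited, with 0 columns left out. After removal of 63 control probe sets, 22746 were tested. Probe sets were named through the platform annotation and the RefSeq gene table of TAIR10.1: 13513 had 1 gene, 503 several and 8730 none.

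The tests used limma 3.58.1 under R 4.3.3, with 1 linear model of 4 groups over 12 arrays, eBayes without trend (8 residual and 6.05 prior degrees of freedom), two-sided, with Benjamini-Hochberg adjustment over all probe sets. The fit was tested on simulated data. Replicates are biological per the labels; their number of arrays limits the precision. Replicate numbers were not found to pair the arrays. Genes of the families were taken by symbol. Named with array values are those called in any comparison, EXPA9, EXPB1, XTH19, XTH32 and the largest miss in each comparison. Among uncalled genes, those with the highest and lowest mean are named likewise. For several of these genes the arrays given are those of the comparison described and not all 12. EXPA16, XTH16, the nearest misses and the genes in the comparisons with the other Col-0 group were named after their values were seen. Members, lists and tests were chosen with earlier results of these data known. From the list of other wall genes, 2 genes of pre-mRNA processing whose symbols share its letters were left out after their names were seen.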

Additional observations from a re-analysis of the deposited data

Results flagged for a closer look

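The effects of the lines differed in 3 of the 27 genes by a test of the difference itself (the CHLM effect minus the CHLD effect, limma, 3 arrays in each of 4 groups). EXPA9 differed by -1.46, with all 3 CHLD RNAi arrays above all Col-0 dexamethasone arrays and the CHLM and Col-0 estradiol arrays overlapping. EXPA8 differed by -1.05, with all 3 CHLM arrays below, and all 3 CHLD RNAi arrays above, their Col-0 arrays. EXPB1 differed by -0.77, and its Col-0 groups differed by nearly as much (-0.73, dexamethasone minus estradiol). The EXPB1 means of the lines lay close together, at 6.80 in CHLD RNAi and 6.76 in CHLM overexpression. What sets these differences was not tested.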

How the results depend on the processing

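Of the 17 calls on single genes, 7 were kept under every alternative run with the matched Col-0 group: EXPA9 and EXLB1 in the CHLD RNAi line, EXPA8, XTH19 and XTH32 in the CHLM line, and EXPA8 and EXPA9 in the difference between the effects. The other 10 ended when some single array was left out, and 0 changed direction under any of these. When single arrays were left out, the number of the 27 genes called lay between 2 and 8 for the CHLD RNAi line (6.87% to 15.9% of all probe sets over these fits), 3 and 7 for the CHLM line (5.08% to 9.19%), 0 and 3 for the Col-0 groups (0% to 3.2%) and 2 and 4 for the difference between the effects (0.822% to 2.16%). The lowest of these counts came without Col-0 dexamethasone replicate 1 (2 for the CHLD RNAi line). They came without CHLM replicate 1 or Col-0 estradiol replicate 3 for the CHLM line (3 each), and without any single Col-0 dexamethasone array or Col-0 estradiol replicate 3 for the Col-0 groups (0 each; 1 without Col-0 estradiol replicate 2). In the fit of only the 6 arrays compared, the counts were 7 for the CHLD RNAi line (15.6% of all probe sets), 3 for the CHLM line (3.76%) and 1 for the Col-0 groups (0.0747%), and the cause was not tested. Requiring a 2-fold size too left 2 genes for the CHLD RNAi line, 1 for the CHLM line and 1 for the Col-0 groups. With the Col-0 group of the other inducer, chosen after seeing the data, EXPB1 turned to -0.38 in the CHLD RNAi line and 0.31 in the CHLM line. EXPB3 turned to -0.15 in the CHLD RNAi line. XTH19 in the CHLM line, among the 7 kept calls, went from 1.23 to 0.13 and lost its call (limma adjusted p = 0.633). Inducer and line differ together in these comparisons. With the 2 genes of older symbols counted as well, the CHLD RNAi line had 7 calls. Same-numbered arrays of different groups had deviations correlated between -0.13 and 0.24, over 0.1 in 1 of 18 pairs, so the numbers were not taken as pairs. With the replicate block the counts were 5 for the CHLD RNAi line (12% of all probe sets), 7 for the CHLM line (8.96%), 2 for the Col-0 groups (0.11%) and 3 for the difference between the effects (1.26%), and the block ended the EXPB1 call in the CHLD RNAi line and brought EXPA16 in the CHLM line past the threshold. Of the genes that missed the threshold, only the largest and nearest misses were followed by name under other settings. EXPA8 in the CHLD RNAi line, XTH32 in the difference between the effects and EXPA16 in the CHLM line passed with array weights. Each also passed with a variance trend and robust fit, and EXPA8 and EXPA16 among probe sets with a mean of at least 6. EXLA1 in the CHLM line passed with array weights, median centring and the same filter. EXPB3 between the Col-0 groups passed with array weights. This list is not complete. Of the 7 calls for the CHLD RNAi line in the fit of 6 arrays, 6 were shared with the main fit, and EXPA8 was not called there. No gene of the 27 had a further probe set, so that alternative was not run, and the dim probe sets EXPB2 and XTH29 gave no value under the filter at a mean of 6.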
